A study of Homo sapiens with 6 samples.

Results

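Mitochondrial ribosomal proteins were followed at the mRNA level in the human esophageal squamous cell carcinoma (ESCC) line KYSE450 and in KEAP1null-KYSE450 cells, which were made from it. The genes were taken by their symbols, MRPL or MRPS followed by a number and, for some, a letter from A to C. They numbered 78 of the 58884 rows of the deposited table, 49 named for the large and 29 for the small subunit of the ribosome. RNA sequencing covered 3 libraries of each line, all from untreated cells grown in RPMI1640 medium. KYSE450 carries wild-type NRF2 (the product of NFE2L2) and intact KEAP1, the adaptor that directs NRF2 to degradation. In KEAP1null-KYSE450 cells, KEAP1 had been disrupted by CRISPR-Cas9 with a guide against exon 2. By the methods they were a single expanded clone, so the loss of KEAP1 and other differences between this clone and its parent cannot be told apart. Nothing in the sources says whether the 3 libraries of a line came from separate cultures, so p-values measure the spread between libraries, which may be technical.

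The mitochondrial ribosome translates the mRNAs transcribed from mitochondrial DNA, all of which encode subunits of the respiratory chain or of ATP synthase. Its rRNAs are transcribed from mitochondrial DNA, whereas all of its proteins are encoded in the nucleus, made on cytosolic ribosomes and imported. Some of these proteins descend from the proteins of bacterial ribosomes, and the others were added during the evolution of mitochondria. The small subunit binds the mRNA and decodes it, and the large subunit joins the amino acids. Many of the genes share promoters bound by nuclear respiratory factor 1 (gene NRF1, unrelated to the NRF2 of this study), by GABP and by YY1.

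All 78 genes were present in the gencode v44 annotation of hg38, and 77 passed a filter on a mean normalized count of at least 10. The exception was MRPL53, listed at 0 in 5 libraries and at 1.01 in KEAP1null-KYSE450 library 3, for which no fold is given. Total normalized counts lay between 54829313 and 57380170 per library, and at this depth the floor of 3 reads was worth 2.77 to 3.21 normalized counts, for counting error only. KEAP1 mRNA itself did not separate the lines, with normalized counts of 5760, 5226 and 5146 in KYSE450 and 5737, 4906 and 5317 in KEAP1null-KYSE450 (log2 fold change -0.017, adjusted p = 0.90, limma), and a count per gene does not show an edit in a transcript. All 7 squamous markers examined were detected in every library, but 5 were called lower and 2 higher in KEAP1null-KYSE450 by limma. KRT14 and KRT6A were far lower (log2 fold changes -6.09 and -4.70) and KRT5 was higher (1.46). Over all tested genes 25.5% were lower and 24.3% higher. Of 8 markers of fibroblasts, immune, endothelial or liver cells, 5 did not pass the filter. Of the 3 that did, 2 were called lower in KEAP1null-KYSE450. COL1A1 reached 333 to 839 normalized counts, while PECAM1 was listed at 0 in all libraries.

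Promoters were read from RefSeq (GRCh38.p14) as the 250 bases before and the 50 bases after the annotated start of the gene, and 69 of the 78 genes had one in the table. Those of MRPL2, MRPL35, MRPL10, MRPL13, MRPL15, MRPL21, MRPL23, MRPS28 and MRPS36 were not used here. The 4 shown belong to the 3 genes with a promoter that fell the most in KEAP1null-KYSE450 and to the one that rose the most. They cover chr1:151763447-151763746 on the minus strand (MRPL9), chr6:30617590-30617889 on the plus strand (MRPS18B), chr2:105037819-105038118 on the plus strand (MRPS9) and chr7:141014903-141015202 on the minus strand (MRPS33). Each is read 5′ to 3′ in the direction of its gene, with matches to the motifs given after them in capitals.
MRPL9: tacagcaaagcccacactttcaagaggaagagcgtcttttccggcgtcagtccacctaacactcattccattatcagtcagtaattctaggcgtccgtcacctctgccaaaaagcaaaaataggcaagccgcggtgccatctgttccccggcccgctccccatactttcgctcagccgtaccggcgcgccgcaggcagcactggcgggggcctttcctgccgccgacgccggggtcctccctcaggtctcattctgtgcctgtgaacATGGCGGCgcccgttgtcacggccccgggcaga
MRPS18B: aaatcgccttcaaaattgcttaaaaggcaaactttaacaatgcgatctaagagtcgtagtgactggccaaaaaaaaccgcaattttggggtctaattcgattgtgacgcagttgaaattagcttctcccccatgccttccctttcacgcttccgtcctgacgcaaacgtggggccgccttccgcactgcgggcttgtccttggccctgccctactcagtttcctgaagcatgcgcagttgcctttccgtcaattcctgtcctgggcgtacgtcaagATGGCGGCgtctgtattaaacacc
MRPS9: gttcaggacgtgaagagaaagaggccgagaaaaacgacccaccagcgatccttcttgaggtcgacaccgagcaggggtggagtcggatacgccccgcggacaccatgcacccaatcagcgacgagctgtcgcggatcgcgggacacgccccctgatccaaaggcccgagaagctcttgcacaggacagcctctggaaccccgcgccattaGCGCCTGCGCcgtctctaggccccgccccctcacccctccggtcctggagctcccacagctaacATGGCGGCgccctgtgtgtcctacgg
MRPS33: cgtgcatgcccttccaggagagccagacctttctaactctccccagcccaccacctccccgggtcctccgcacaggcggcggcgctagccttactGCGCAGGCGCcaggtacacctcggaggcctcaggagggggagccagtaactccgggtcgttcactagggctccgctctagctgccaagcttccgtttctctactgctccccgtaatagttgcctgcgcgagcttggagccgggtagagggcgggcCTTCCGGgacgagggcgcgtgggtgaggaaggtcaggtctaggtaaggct

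Several patterns of letters were searched on both strands, each on its own, so that a base could belong to more than one match. CCGGAAG, the core bound by ETS factors including GABP, was present in 29 of the 69 promoters (42.0%), against 10.7% of all 27305 promoters and 18.5% of those of tested genes. ATGGCGGC, bound by YY1, was in 19 (27.5%), against 3.21% of all promoters and 5.95% of those of tested genes. In MRPL9, MRPS18B and MRPS9 these letters stand within the 50 bases after the start, where they can also be an ATG start codon followed by alanine codons. The nuclear respiratory factor 1 pattern, GCGCA and GCGC with any base between them, was in 8 (11.6%, against 6.28% and 11.4%), including MRPS9 and MRPS33 as shown. TGACNNNGC, the core of the antioxidant response element bound by NRF2, was in 8 (11.6%, against 13.6% and 15.0%), and neither in the 3 falling genes shown nor in MRPS33. The E-box CACGTG was in 6 (8.70%, against 7.43% and 10.2%). By change between the lines, ATGGCGGC stood in 10 of 22 promoters of genes that fell and in 9 of 45 of genes not called, and CCGGAAG in 8 of 22 and 19 of 45. These shares describe letters in a window and were not tested.

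In KEAP1null-KYSE450 cells, 24 of the 77 mitochondrial ribosomal protein genes fell, 2 rose and 51 were not called, by limma at an adjusted p under 0.05. The changes were small. None passed an absolute log2 fold change of 1, the cutoff the study used along with the p-value, whereas 18.2% of all tested genes passed both, and 20 of the 26 called genes changed by less than 1.5-fold. The share that fell was 31.2%, against 25.5% of the 16701 genes tested, and 2 of 77 rose, against 24.3% of the genes tested. In either direction 33.8% were called, against 49.8%. Most of the members are well expressed, and among genes with a mean of at least 100, 31.9% of all genes fell and 22.6% rose, against 24 and 2 of the 75 members that passed this limit. The share of falling genes among members was thus near that of other well-expressed genes, and the share of rising genes was below it. The median log2 fold change over the members was -0.16, against 0.0041 over all tested genes. Of the 51 genes not called, 47 had a 95% interval that lay within a 1.5-fold change in either direction.

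**Figure D1:**
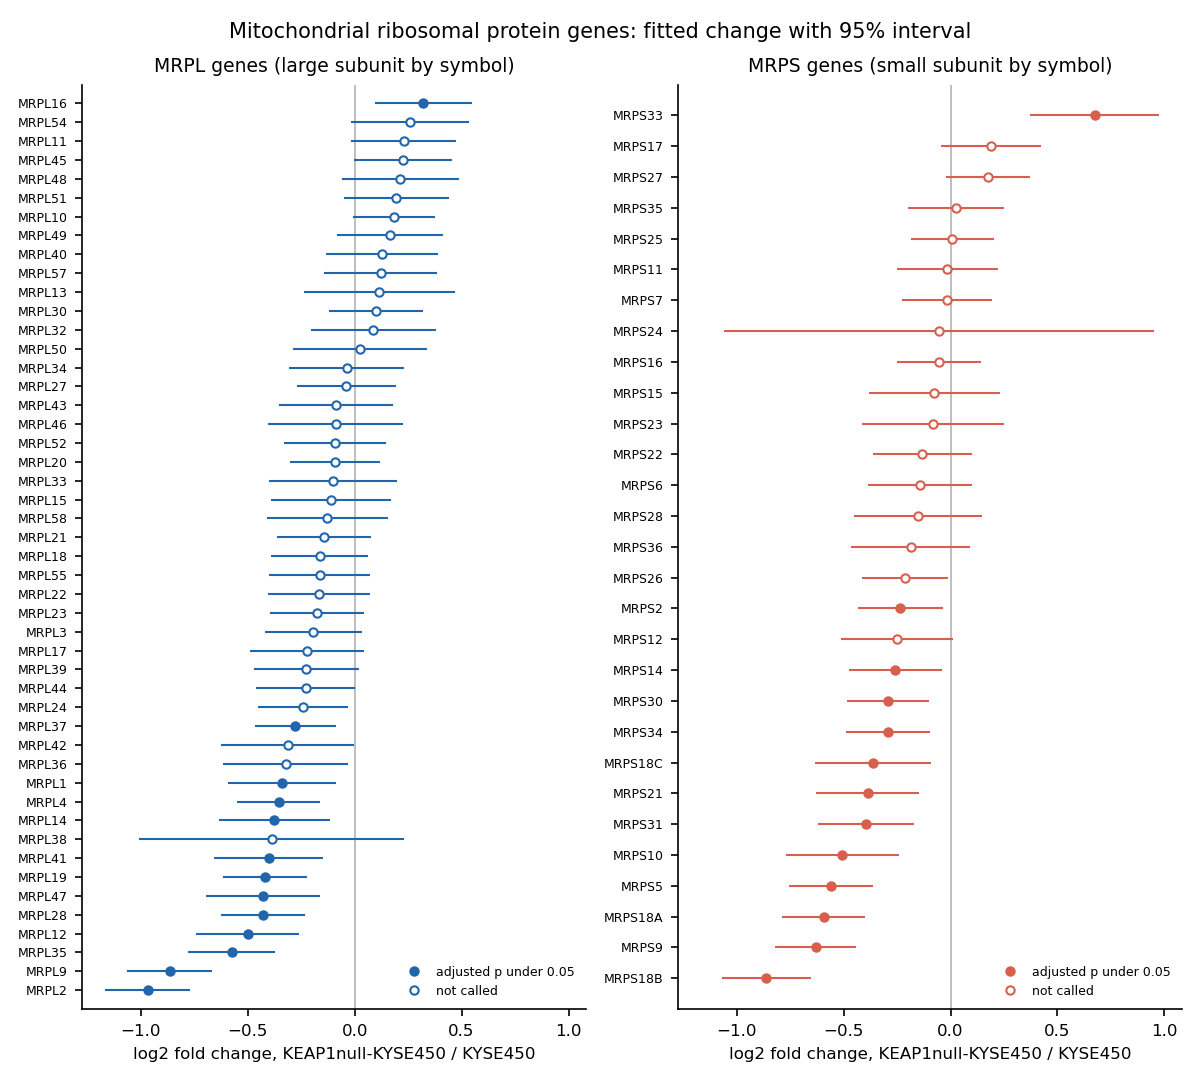
Log2 fold change between KEAP1null-KYSE450 and KYSE450 (x axis) for the 48 tested MRPL genes (left) and the 29 MRPS genes (right), with 95% intervals from limma. Filled points had an adjusted p under 0.05. MRPL2 lies lowest at -0.97 and MRPS33 highest at 0.67.

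This split between falling and rising genes depended on the setting. When libraries were rescaled to the same total, 22 members fell and 2 rose, against 3908 and 4287 of 16703 genes tested. Under quantile normalization, which forces every library to the same distribution, 13 members fell and 9 rose, and the median of the members was -0.051. Of all 16701 genes tested under this setting, 3929 fell and 3763 rose. Leaving out KYSE450 library 1 gave 34 members that fell and 1 that rose, against 4041 and 4035 of 16766 genes tested. In that line, library 1 held the lowest value of 70 of the 77 genes and library 3 the highest of 66, and in KEAP1null-KYSE450, library 1 was lowest for 54 and library 3 highest for 60. On the log2 scale, the members' median deviation from the line's mean was -0.18 in KYSE450 library 1 and 0.15 in library 3, against 0.027 and -0.014 over all genes. The same order of libraries was seen in the 77 tested cytosolic ribosomal protein genes (median deviations -0.22 and 0.16 in KYSE450 libraries 1 and 3) and in the 77 tested nuclear-encoded respiratory chain genes (-0.20 and 0.15), so it was not particular to the mitochondrial ribosome. These deviations were about as large as the median difference between the lines for the members. The part of this in the counts of called genes was not tested. The genes called under all 15 other settings numbered 10: MRPL2, MRPL9, MRPL12, MRPL35, MRPS5, MRPS9, MRPS10, MRPS18A and MRPS18B fell, and MRPS33 rose.

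By symbol, 12 of 48 large subunit genes (25%) fell and 1 rose, and 12 of 29 small subunit genes (41.4%) fell and 1 rose. Of all tested genes 25.5% fell, and of those with a mean of at least 100, 31.9% fell. The median log2 fold change was -0.15 for the large and -0.19 for the small subunit, and under quantile normalization it was 0.0056 for the large and -0.091 for the small subunit. The symbols do not fully follow the ribosome. MRPS18A and MRPS30 sit in the large subunit, MRPS36 is known as a part of the 2-oxoglutarate dehydrogenase complex, and DAP3, PTCD3, AURKAIP1 and CHCHD1 (small) and GADD45GIP1 (large) are subunits with other names. Sorted in this way, 15 of 51 tested large subunit genes fell and 1 rose, as did 12 and 1 of 30 small subunit genes, and the medians were -0.16 and -0.15. The order of the medians changed with this assignment, and the difference between the subunits was not tested.

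Summed over the genes by symbol, the large subunit had 235041, 270418 and 295145 normalized counts in KYSE450 and 224681, 245283 and 256156 in KEAP1null-KYSE450. The groups overlapped. The small subunit had 161634, 178714 and 191443 in KYSE450, and 145811, 153177 and 161127 in KEAP1null-KYSE450. Every library of the knockout line lay below every library of the parent, but 161127 and 161634 were close. The latter is KYSE450 library 1, which was lowest in its line for most members. Sorted by the known structure, the small subunit sums reached 175881 in KEAP1null-KYSE450 and began at 178143 in KYSE450. The ratio of the sums by symbol, large to small, was 1.45, 1.51 and 1.54 in KYSE450 and 1.54, 1.60 and 1.59 in KEAP1null-KYSE450. All members together took 0.784% ± 0.076 (SD, n = 3) of the normalized counts in KYSE450 and 0.714% ± 0.043 (SD, n = 3) in KEAP1null-KYSE450. These sums are descriptions without a test, and in normalized counts less mRNA of these genes per cell and more of other mRNAs cannot be told apart.

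**Figure D2:**
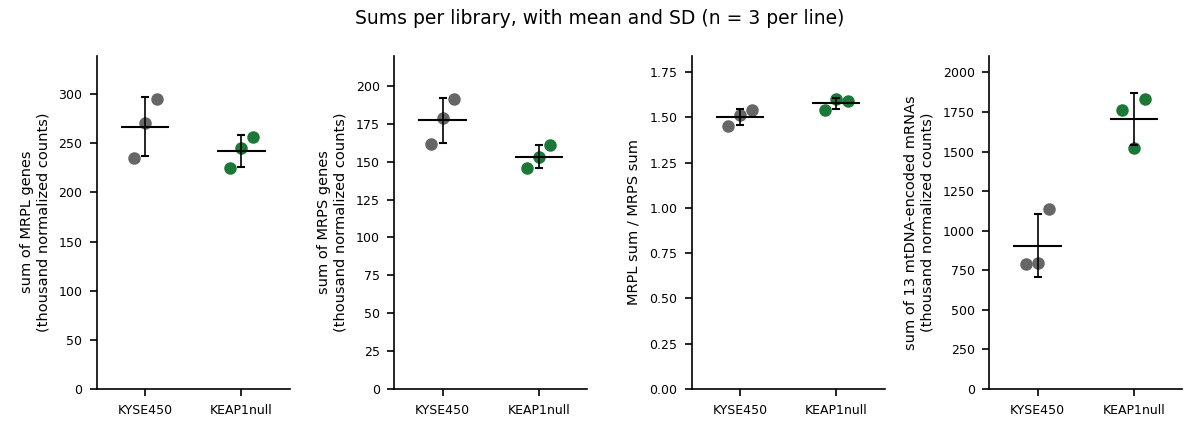
Sums of normalized counts per library for the MRPL genes, the MRPS genes, their ratio, and the 13 mRNAs of mitochondrial DNA, with points for libraries, a bar for the mean and whiskers for the SD (n = 3 per line). The MRPS sums of the lines come close but do not overlap, those of the MRPL genes do, and the mitochondrial mRNA sums of KEAP1null-KYSE450 all lie above those of KYSE450.

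Among the proteins of the large subunit that have a bacterial counterpart, 10 of 30 genes fell and 1 rose, and among the mitochondria-specific ones 2 of 18 fell and none rose. The share of 33.3% that fell among the former was near the 31.9% of all well-expressed genes. The difference between these classes was not tested, and under quantile normalization 6 fell and 4 rose in the former and 1 fell and 3 rose in the latter. The proteins around the peptidyl transferase centre include MRPL2, the counterpart of bacterial L2, whose mRNA fell the most of all members. MRPL2 (chr6:43054029-43059438, hg38) had 4400, 4709 and 4982 normalized counts in KYSE450 and 2453, 2348 and 2391 in KEAP1null-KYSE450. Its level in the knockout line was thus 51.0% of that in the parent, with no overlap (log2 fold change -0.97, standard error 0.092, adjusted p = 3.5e-06, limma). MRPL9, the counterpart of the bacterial protein at the base of the L1 stalk (chr1:151759647-151763496), had 5526, 5974 and 6331 normalized counts in KYSE450 and 3240, 3183 and 3352 in KEAP1null-KYSE450. It fell by 45.2%, the values of the knockout line lying close together (log2 fold change -0.87, standard error 0.091, adjusted p = 9.1e-06, limma). MRPL35, another large subunit protein with a bacterial counterpart, had 7310, 7749 and 8692 normalized counts in KYSE450 and 5351, 5185 and 5368 in KEAP1null-KYSE450. This was a fall of 33.0% without overlap (log2 fold change -0.57, standard error 0.094, adjusted p = 2.9e-04, limma).

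The stalk of the large subunit, which receives the translation factors, showed opposite signs among its genes. MRPL12, the protein at its tip, had 1467, 1404 and 1472 normalized counts in KYSE450 and 969, 956 and 1156 in KEAP1null-KYSE450. It fell by 29.1% (log2 fold change -0.50, standard error 0.11, adjusted p = 0.0025, limma). At the stalk base, MRPL10 had a log2 fold change of 0.18 (adjusted p = 0.0998, limma) and MRPL11 one of 0.23 (adjusted p = 0.11, limma), and MRPL54 had one of 0.26 (adjusted p = 0.11, limma), none of which was called. MRPL53, listed at 0 in 5 libraries, belongs to the same group. None of the 8 proteins of the central protuberance was called, with log2 fold changes from -0.39 (MRPL38) to 0.21 (MRPL48). MRPL38 had only 52.6 to 113 normalized counts and a standard error of 0.29. Over all tested genes, 49.8% were called and 25.5% fell. Around the exit of the peptide tunnel, where the ribosome meets the inner membrane, MRPL47 fell (log2 fold change -0.43, adjusted p = 0.012, limma) and the other 7 genes were not called. Among them MRPL24 had -0.24 (adjusted p = 0.054, limma) and MRPL45, which anchors the ribosome to the membrane, 0.23 (adjusted p = 0.092, limma).

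One large subunit gene rose. MRPL16, the counterpart of bacterial L16 near the tRNA sites, had 4026, 4580 and 5132 normalized counts in KYSE450 and 5351, 5750 and 5992 in KEAP1null-KYSE450, a rise of 24.4% (log2 fold change 0.32, standard error 0.11, adjusted p = 0.023, limma). The groups did not overlap, but the call was lost under 7 of 15 other settings.

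In the small subunit, 7 of the 16 genes with a bacterial counterpart fell (43.75%) and none rose. Of 10 mitochondria-specific ones, 3 fell (30%) and 1 rose. Of all tested genes 25.5% fell, and of those with a mean of at least 100, 31.9% fell. Leaving out KYSE450 library 3 brought the 7 down to 3, as did quantile normalization, and the classes were not tested against each other. MRPS9, a protein of the head that reaches towards the decoding centre (promoter shown above), had 8482, 8457 and 8415 normalized counts in KYSE450 and 5816, 5380 and 5203 in KEAP1null-KYSE450. The 3 parental values lay close together, and the fall was 35.3% (log2 fold change -0.63, standard error 0.088, adjusted p = 8.7e-05, limma). MRPS5, at the entry of the mRNA channel, had 8843, 8207 and 8406 normalized counts in KYSE450 and 6122, 5341 and 5839 in KEAP1null-KYSE450, a fall of 32.0% (log2 fold change -0.56, standard error 0.091, adjusted p = 3.0e-04, limma). MRPS10, another protein of the head, had 6973, 8617 and 9993 normalized counts in KYSE450 and 5567, 6021 and 6243 in KEAP1null-KYSE450 (log2 fold change -0.51, standard error 0.12, adjusted p = 0.0043, limma). Its values did not overlap, but the parental libraries were spread widely and in the order seen for most members.

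MRPS33, a mitochondria-specific protein of the small subunit, went the other way. Its normalized counts were 2165, 2765 and 3069 in KYSE450 and 3553, 4573 and 4595 in KEAP1null-KYSE450. Every library of the knockout line lay above every library of the parent, and the mean was 59.0% higher (log2 fold change 0.67, standard error 0.14, adjusted p = 0.0015, limma). It was the single member called higher both here and by edgeR and DESeq2 on the recovered reads of 4 libraries.

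The mitochondrial ribosome has 3 proteins related to bacterial S18, and the genes of all 3 fell in the main fit. Among all tested genes 25.5% fell, and among those with a mean of at least 100, 31.9%. MRPS18B, which sits in the small subunit as a mitochondria-specific protein, had 12153, 13647 and 14304 normalized counts in KYSE450 and 6942, 7355 and 7739 in KEAP1null-KYSE450. This was a fall of 45.1% without overlap (log2 fold change -0.86, standard error 0.096, adjusted p = 1.4e-05, limma). MRPS18A, the one in the large subunit, had 3653, 3967 and 3947 normalized counts in KYSE450 and 2529, 2536 and 2601 in KEAP1null-KYSE450 (log2 fold change -0.59, standard error 0.090, adjusted p = 1.7e-04, limma). MRPS18C, which takes the place of bacterial S18, had 2998, 3211 and 3770 normalized counts in KYSE450 and 2241, 2511 and 3020 in KEAP1null-KYSE450, so that the groups overlapped (log2 fold change -0.36, standard error 0.13, adjusted p = 0.028, limma). MRPS30, also of the large subunit, fell by 18.4% (log2 fold change -0.29, adjusted p = 0.015, limma). The calls of MRPS18C and MRPS30 were each lost under 6 of the 15 other settings. MRPS36, the enzyme complex component, had a log2 fold change of -0.19 (adjusted p = 0.25, limma).

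**Figure D3:**
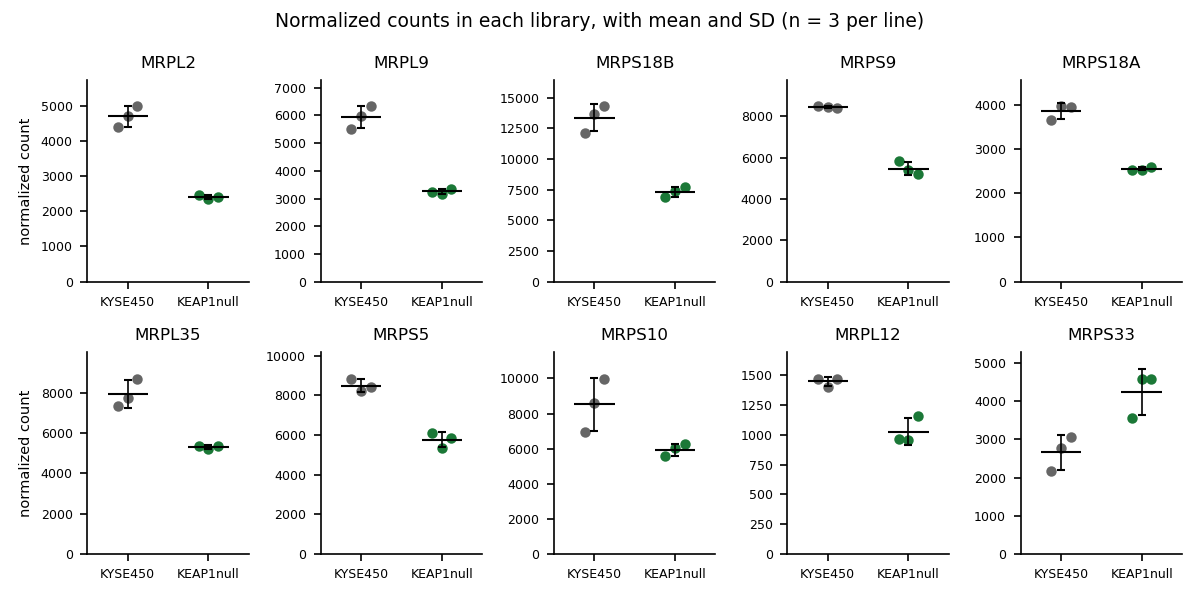
Normalized counts of the 10 members called under every setting, by library, with a line for the mean and whiskers for the SD (n = 3 per line; y axes start at 0). In 9 genes all 3 KEAP1null-KYSE450 libraries lie below all KYSE450 libraries, and in MRPS33 they lie above.

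Of the subunits named otherwise, DAP3, a GTP-binding protein in the head of the small subunit, had 10880, 11288 and 11642 normalized counts in KYSE450 and 6017, 5334 and 5992 in KEAP1null-KYSE450. Its fall was close in size to that of MRPL2 (log2 fold change -0.96, standard error 0.091, adjusted p = 3.4e-06, limma). GADD45GIP1 (-0.41, adjusted p = 0.010, limma) and AURKAIP1 (-0.24, adjusted p = 0.039, limma) also fell on the log2 scale, but these calls were lost under 5 and 10 of the 15 other settings, respectively. PTCD3 (0.076, adjusted p = 0.54, limma) and CHCHD1 (-0.068, adjusted p = 0.72, limma) were not called.

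Without regard to the fit, the 3 values of KEAP1null-KYSE450 lay wholly below those of KYSE450 in 26 of the 77 members, as they did in 29.3% of all tested genes, and wholly above in 5, as in 28.4% of all tested genes. The coefficient of variation between libraries had a median of 11.9% in KYSE450 and 6.79% in KEAP1null-KYSE450.

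Several members that fell lay in stretches where most of the tested genes fell too. For each gene, the median log2 fold change of the 40 nearest tested genes was taken, members left out and genes with a mean under 100 not used. MRPS18B lay among the lowest neighbours, with a median of -0.90 and 33 of the 40 called lower, and its own change of -0.86 was no larger than theirs. MRPL2, MRPS18A, MRPS10 and MRPL14, from 42.2 to 44.1 Mb on the same chromosome 6, had neighbour medians of -0.53, -0.53, -0.49 and -0.54. The stretches that hold their neighbours overlap, so these medians share genes and are not separate observations. On chromosome 1, between 150.3 and 156.7 Mb, the neighbour medians were -0.60 for MRPS21, -0.59 for MRPL9 and -0.73 for MRPL24, and DAP3 (chr1:155687960-155739010) had one of -0.79. The neighbours of MRPS21 and MRPL9 lie in overlapping stretches as well. MRPL24 itself stood above its neighbours, at -0.24, and was not called. Nor were MRPL54, MRPL17 and MRPL23, whose neighbour medians were -0.37, -0.48 and -0.36. Their own log2 fold changes were 0.26, -0.22 and -0.18, above those of their neighbours. In all, 11 of the 77 members, some with neighbours in common, had a neighbour median below -0.3. Of these 11, 7 fell, whereas 17 of the other 66 did. The share that fell was 25.5% over all tested genes and 31.9% over those with a mean of at least 100. The difference between the 11 and the 66 was not tested. Among the other 66 the median log2 fold change was -0.13. Over all 77, the member lay below its own neighbours in 41, and the median of the difference was -0.016.

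Other falls lay among neighbours whose median was near 0. MRPS9, MRPL35, MRPS5 and MRPL19, all on chromosome 2 but not next to each other, had log2 fold changes of -0.63, -0.57, -0.56 and -0.42, and neighbour medians of -0.0033, -0.015, -0.021 and -0.011. MRPL30, on the same chromosome at 99.2 Mb between MRPS5 and MRPS9, had one of 0.10 (adjusted p = 0.43, limma). MRPS31 fell (-0.39) among neighbours with a median of 0.17, and MRPS33 rose among neighbours with one of -0.030. At the upper end, the neighbours of MRPL48 and MRPL51 had medians of 0.22 and 0.22, and these genes had log2 fold changes of 0.21 and 0.19 that were not called. Whether a stretch of chromosome differs in copy number between the clone and its parent was not tested.

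**Figure D4:**
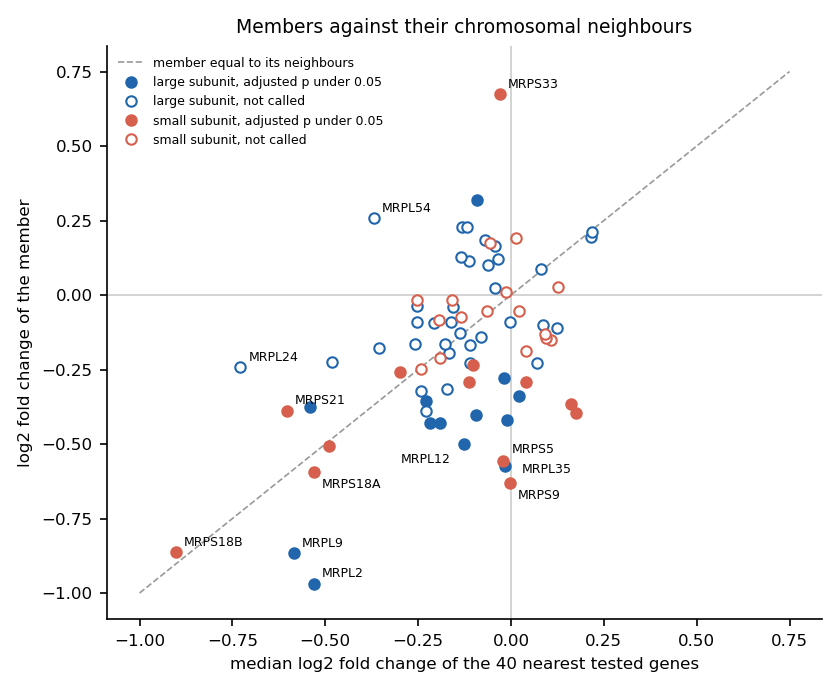
Log2 fold change of each of the 77 tested members (y axis) against the median of its 40 nearest tested genes (x axis), with filled points for an adjusted p under 0.05 and a dashed line where both are equal. MRPS18B, MRPL2, MRPL9 and MRPS18A lie at the left among low neighbours, whereas MRPS9, MRPL35, MRPS5 and MRPS33 lie near 0 on the x axis.

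Levels were compared between genes per kilobase of the canonical transcript. In KYSE450 the median over the members was 3720 normalized counts per kilobase, and in KEAP1null-KYSE450 it was 3382. MRPL3, MRPL51 and MRPS34 stood highest in KYSE450, at 13694, 12821 and 11518 normalized counts per kilobase. MRPL53, MRPS24 and MRPL38 stood lowest, at 0, 27.2 and 66.0. These 3 are among 4 members whose exons are covered to at least 90% by another annotated gene on the same strand, namely CCDC142 for MRPL53 and the read-through URGCP-MRPS24 for MRPS24. CCDC142 had 469 to 618 normalized counts, and URGCP-MRPS24 was listed at 0 in all libraries. Reads that fall in exons of more than one gene may not have been assigned, so the levels of these members are uncertain. The fourth is MRPS5, covered to 97.1%, at 2573 normalized counts per kilobase in KYSE450. MRPL2 and MRPL12 are covered to 52.1% and 69.5% on the same strand, and MRPS18C to 83.6% and MRPS18A to 60.6% by a gene on the other strand. Of 75 rows for pseudogenes of members, 3 reached a mean of 10, and none exceeded 5% of the level of its parent gene.

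The factors that build and serve the mitochondrial ribosome were taken from lists by role. Of all tested genes, 25.5% fell and 24.3% rose. Most genes of these lists had a mean of at least 100, and of all such genes 31.9% fell and 22.6% rose. Of 28 assembly factors, 10 fell (35.7%, near the share of well-expressed genes) and 1 rose, with a median log2 fold change of -0.21. Quantile normalization gave 6 and 3, and edgeR and DESeq2 each gave 5 and 1. The assembly factors that fell included MRM1, which methylates the rRNA of the large subunit (-0.98, adjusted p = 1.7e-05, limma), MPV17L2 (-0.85, adjusted p = 1.6e-04, limma) and the helicase DHX30 (-0.64, adjusted p = 7.3e-04, limma). YBEY, an endoribonuclease needed for the small subunit rRNA, rose (0.75, adjusted p = 2.4e-04, limma). Of 17 translation factors, 5 fell (29.4%, near the share of all genes) and 1 rose (median -0.13), and 3 fell without KEAP1null-KYSE450 library 2, under quantile normalization (median 0.0042), and with edgeR and DESeq2. The translation factors that fell included the elongation factor GFM1 (-0.64, adjusted p = 4.2e-04, limma), the release factor MTRF1L (-0.57, adjusted p = 5.6e-04, limma) and TACO1, an activator of cytochrome oxidase translation (-0.55, adjusted p = 6.2e-04, limma). METAP1D, which removes the first methionine, rose (0.42, adjusted p = 0.014, limma), a call lost under 3 of 15 other settings.

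Of 22 enzymes that charge mitochondrial tRNAs, 12 fell and 4 rose (median -0.28). The share that fell was 54.5%, against 25.5% of all tested genes and 31.9% of those with a mean of at least 100. Without KEAP1null-KYSE450 library 2, 7 fell and 2 rose, and without library 3 of that line 7 and 1. With eBayes without trend 7 fell and 2 rose, and with edgeR and DESeq2 7 and 1. The alanyl, valyl and threonyl enzymes fell the most, AARS2 by 0.97, VARS2 by 0.92 and TARS2 by 0.83 on the log2 scale. All 3 lie in the low stretches of chromosomes 6 and 1, with neighbour medians of -0.51, -0.81 and -0.60. The prolyl enzyme PARS2 rose (0.79), as did GATB (0.38) and GATC (0.30), which belong to the complex that makes glutaminyl-tRNA. The call of PARS2 held under all 15 other settings, whereas those of GATB and GATC were lost under 3 and 8 of them. Of 11 genes of mitochondrial DNA upkeep and transcription, 3 fell and 1 rose (median -0.11, and 0.016 under quantile normalization, where 1 fell and 2 rose). Without KEAP1null-KYSE450 library 2 or 3, 1 fell and none rose. POLG, the DNA polymerase, fell by 0.74 on the log2 scale, the RNA polymerase POLRMT by 0.39 and the helicase TWNK by 0.38, whereas the elongation factor TEFM rose (0.40). Only POLG among these kept its call under all 15 other settings, while POLRMT lost it under 7, TWNK under 6 and TEFM under 9. These values are log2 fold changes with adjusted p-values from limma under 0.05.

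Regulators of mitochondrial biogenesis showed 6 falls (75%) and 1 rise among 8 tested genes (median log2 fold change -0.52). Of all tested genes 25.5% fell and 24.3% rose, and of those with a mean of at least 100, 31.9% fell. With edgeR and with DESeq2, 5 of 9 tested regulators fell and none rose. NRF1 had 1349, 1038 and 1287 normalized counts in KYSE450 and 726, 682 and 676 in KEAP1null-KYSE450, without overlap (log2 fold change -0.81, standard error 0.12, adjusted p = 1.9e-04, limma). The coactivator PPARGC1B fell as well (-0.77, adjusted p = 7.5e-04, limma). So did GABPB2 (-0.62, adjusted p = 0.0012, limma) and GABPB1 (-0.44, adjusted p = 0.0060, limma), both partners of GABPA. GABPA, the subunit that binds DNA, was not called (-0.045, adjusted p = 0.72, limma). MYC rose (0.30, adjusted p = 0.024, limma), a call lost under 7 of 15 other settings.

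**Figure D5:**
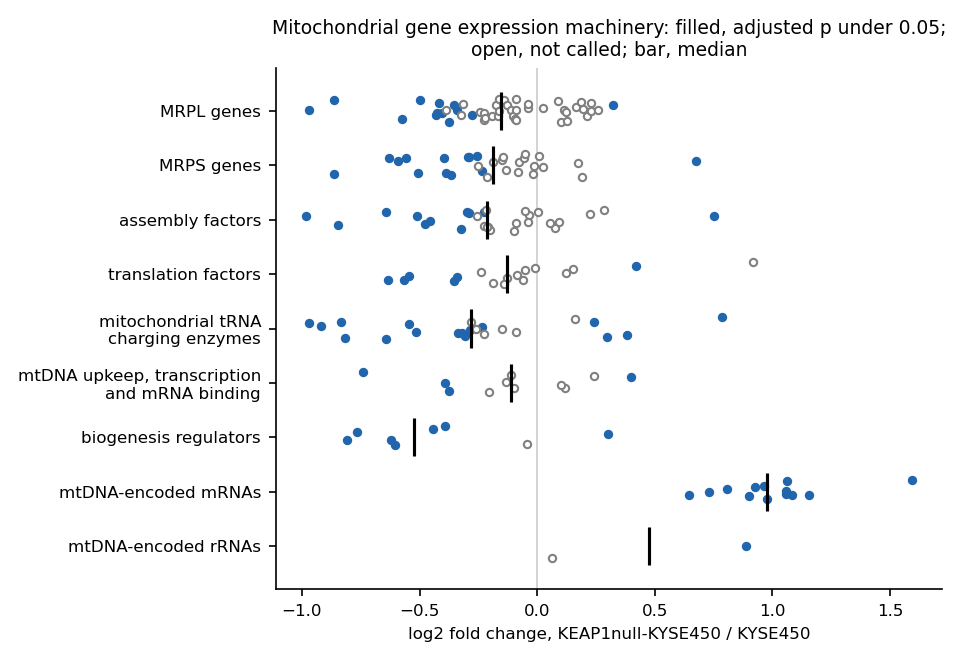
Log2 fold changes between KEAP1null-KYSE450 and KYSE450 (x axis) for MRPL and MRPS genes and for lists of genes of mitochondrial gene expression (rows; vertical scatter only separates points). Filled points had an adjusted p under 0.05 and black bars are medians, which run from -0.52 in the biogenesis regulators to 0.98 in the mitochondrial mRNAs.

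The RNAs that the mitochondrial ribosome translates or contains were measured in the same libraries. All 13 mRNAs of mitochondrial DNA rose in KEAP1null-KYSE450, against 24.3% of all tested genes. Their log2 fold changes ran from 0.65 (MT-CO2) to 1.59 (MT-ND6), and 12 or 13 of them were called under each of the 15 other settings. They took 1.39%, 1.42% and 1.98% of the normalized counts in KYSE450, and 3.17%, 2.78% and 3.28% in KEAP1null-KYSE450. Set against the summed mRNAs of the members in the same library, they came to 1.99, 1.77 and 2.33 in KYSE450 and to 4.76, 3.82 and 4.39 in KEAP1null-KYSE450, without overlap. Of the rRNAs, MT-RNR1 of the small subunit had a log2 fold change of 0.061 (adjusted p = 0.71, limma) and MT-RNR2 of the large subunit one of 0.89 (adjusted p = 8.5e-04, limma). Under quantile normalization MT-RNR2 was not called (0.093). How far rRNA was removed or mRNA selected before sequencing is not given in the sources used here, so levels of the rRNAs may reflect library preparation.

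Cytosolic ribosomal proteins and the nuclear-encoded subunits of the respiratory chain were set beside the members. Of 77 tested cytosolic ribosomal protein genes, 3 fell and 11 rose (median log2 fold change 0.16), and of 77 tested respiratory chain genes 10 fell and 20 rose (median 0.13), the latter 26.0%, near the 24.3% of all tested genes. For the mitochondrial ribosomal protein genes the counts were 24 and 2 (median -0.16). Under quantile normalization 4 fell and 13 rose in the cytosolic list, 5 and 34 in the respiratory list, and 13 and 9 among the members. With each library left out, the number that rose ran from 3 to 25 in the cytosolic list and from 8 to 28 in the respiratory list. Without KYSE450 library 1, 15 respiratory chain genes fell and 13 rose. The difference between these lists was not tested.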

How the data were processed

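The libraries analysed were 3 of KYSE450 and 3 of KEAP1null-KYSE450. Per the labels and the methods, the authors checked and trimmed reads (FastQC 0.11.5, cutadapt 1.12), aligned them to hg38 with STAR 2.6.90c, counted them per gene with featureCounts 1.5.1 and normalized the matrix. The deposited values are normalized counts per gene, a signal (reads divided by 1 factor per library), and their columns name the line but no replicate, so libraries are numbered in the order of the columns. The methods name a RefSeq annotation, whereas rows carry Ensembl identifiers. Whether counting used strand is not given in the sources used here. Of 58884 rows, 273 had no symbol.

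Log2(normalized count + 1) was fitted with limma 3.58.1 in R 4.3.3 (lmFit, eBayes with trend) over genes whose mean reached 10, with all 6 libraries and no covariate. Tests were two-sided, with Benjamini-Hochberg adjustment over 16701 genes. The pseudocount slightly understates changes of low genes. Positions came from gencode v44. Divided by the smallest value of the library, 100% of values gave whole numbers in every library. The values of 4 libraries were accepted as whole reads (53027359 to 61543442 in all). These reads were tested with edgeR 4.0.16 and DESeq2 1.42.0 as alternatives. KYSE450 library 2 and KEAP1null-KYSE450 library 3 were not accepted as whole reads and were left out of those fits. The other alternatives were other pseudocounts, filters and scalings, eBayes without trend, and each library left out. The fits were tested on simulated data. The members, lists and tests were chosen with earlier results of these data known. Genes were named by size of change among those called (at most 5 members and 3 genes of another list per direction), by role, by level and by neighbours. The others that are named, among them MRPL14, MRPL19, MRPL30, MRPL35, MRPL45, MRPL47, MRPS5 and MRPS10, were added after their values were seen.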

Additional observations from a re-analysis of the deposited data

How the results depend on the processing

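The counts of called members changed under quantile normalization and with the fit. The edgeR and DESeq2 fits used 4 of the 6 libraries, so tool and number of libraries cannot be told apart in them. Against 24 lower and 2 higher, quantile normalization gave 13 lower and 9 higher, edgeR on the recovered reads of 4 libraries 11 and 1, DESeq2 on the same reads 13 and 1, and eBayes without trend 16 and 1. Other pseudocounts, filters and rescaling gave 22 to 24 lower and 2 higher. Over all 16701 tested genes, 4251 were lower and 4060 higher in the main fit. Under quantile normalization these counts were 3929 and 3763, and with eBayes without trend 3492 and 3668. With edgeR 2479 of 16762 genes were lower and 2923 higher, and with DESeq2 2739 and 2624. The median over the members was -0.15 with edgeR and -0.18 with DESeq2, against -0.16 in the main fit. With each library left out, 16 to 34 members were lower, 1 to 4 higher (4 without KEAP1null-KYSE450 library 1, and 1 without KYSE450 library 1 or 2 or KEAP1null-KYSE450 library 2 or 3), and 0 to 1 passed both thresholds, the 1 being MRPL2 without KYSE450 library 1. The medians then ran from -0.24 to -0.074 for the large and from -0.25 to -0.080 for the small subunit. An alternative without the 11 members whose neighbours were lower, chosen after seeing the data, left 17 lower and 2 higher. Of the 26 called members, 10 kept their call under all 15 alternatives, 16 lost it in at least 1, and 0 changed sign. Of 34 called genes named that are not members, 22 kept their call under all 15, 12 lost it in at least 1 and 0 changed sign. Among the 76 genes recomputed under every setting, those that changed sign were 5 that were not called. Under quantile normalization the log2 fold change was 0.0079 for MRPL3, 0.14 for KEAP1, 0.027 for CHCHD1, -0.094 for MT-RNR1 and 0.072 for GABPA, and rescaling gave 0.016 for KEAP1. MT-RNR1 was -0.026 with edgeR and -0.053 with DESeq2, and GABPA 0.0084 with edgeR. With each library left out, KEAP1 ran from -0.072 to 0.040, CHCHD1 from -0.24 to 0.044, MT-RNR1 from -0.015 to 0.17 and GABPA from -0.088 to 0.0064. The causes were not tested. No paired analysis was possible because the columns carry no replicate number. The number of libraries, 3 per line, limits what differences can be called.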
